A study of Mus musculus with 6 samples.

Results

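Matricellular proteins are secreted into the extracellular matrix but serve there mainly as signals to cells rather than as scaffold. The 10 matricellular genes described here were taken by symbol from the gene-level count table of mouse tumor cells: the thrombospondins Thbs1, Thbs2 and Thbs3, then Sparc, Spp1, Tnc, Postn and Tgfbi, and the CCN genes Ccn1 and Ccn2. All 10 were found among the 56734 gene symbols of the table, and all 10 had enough counts to be tested. Their rule was the symbol alone, with no threshold on a measured value. The list of symbols was chosen with earlier results of these data known. The cells were B16-OVA, mouse B16 melanoma cells engineered to express ovalbumin. Polyadenylated RNA was sequenced from 3 libraries labelled Ythdf2-KO and 3 labelled WT, with no treatment named, so both groups share the line and the ovalbumin. The labels do not say whether a knockout line was 1 clone, which guide was used, or whether replicates were separate cultures, and the tags gY2 and gNC in the titles of the Ythdf2-KO and WT libraries are not explained. The p-values therefore measure the spread between these libraries, which may be technical.

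YTHDF2 binds mRNAs that carry N6-methyladenosine and is known to promote their decay. Thrombospondin 1 and 2 are trimeric glycoproteins known as inhibitors of angiogenesis, and thrombospondin 1 is also known to bind the cell surface protein CD47 and to activate latent TGF-beta. CCN1 and CCN2 signal through integrins and are textbook targets of the YAP and TAZ coactivators. Osteopontin, the product of Spp1, engages integrins and CD44, while SPARC binds collagen and is known for its association with melanoma invasion. Tenascin C, periostin and the TGF-beta-induced protein are adhesion modulators found in tumor stroma.

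Total counts were 61167059 to 69497273 in the Ythdf2-KO libraries and 55660473 to 68739046 in the WT libraries. Levels are given as CPM, counts relative to library size with TMM scaling factors, and 3 counts corresponded to 0.0433 to 0.0540 CPM. Ythdf2 itself stood at 100.1, 101 and 104 CPM in Ythdf2-KO libraries 1, 2 and 3, against 124, 124 and 125 CPM in WT libraries 1, 2 and 3. All Ythdf2-KO libraries were below all WT libraries (log2 fold change -0.29 ± 0.026, SE over 3 libraries a group; edgeR adjusted p = 4.08e-13), and gene-level counts do not show the edited sequence or the protein. Markers of melanocytes were present in both groups, with 10 of 10 listed genes called higher in Ythdf2-KO and a summed level of 1444 to 1472 CPM in Ythdf2-KO and 242 to 246 CPM in WT. Beside this and the marker counts that follow, 49.9% of all genes tested were called, 24.1% higher and 25.8% lower (threshold given below). Markers of fibroblasts, a cell type known for matricellular genes, were also present: 7 of 8 listed were tested, 5 higher and 2 lower, and their summed level was 3920 to 3983 CPM in Ythdf2-KO and 3473 to 3572 CPM in WT. Col6a3, a collagen VI chain gene, made up most of that sum, and the list without it stood at 969 to 989 CPM in Ythdf2-KO and 1115 to 1157 CPM in WT. The fibroblast markers that fell encode small matrix proteoglycans: Dcn averaged 41.5 ± 0.735 CPM in Ythdf2-KO and 487 ± 8.10 CPM in WT, and Lum 12.7 ± 0.609 CPM in Ythdf2-KO and 32.6 ± 0.887 CPM in WT (SD, n = 3). Those that rose were Col6a3, Pdgfra, Pdgfrb, Dpt and Fap. Pdgfra averaged 407 CPM in Ythdf2-KO and 269 CPM in WT, and Pdgfrb 505 CPM in Ythdf2-KO and 340 CPM in WT. Dpt averaged 8.38 CPM in Ythdf2-KO and 4.43 CPM in WT, and Fap 2.18 CPM in Ythdf2-KO and 0.420 CPM in WT. Of 8 macrophage markers 4 were tested, 1 higher and 3 lower, and the list summed to 25.1 to 29.0 CPM in Ythdf2-KO and 30.4 to 32.3 CPM in WT, most of it from Cd68 (878 to 1062 counts in Ythdf2-KO, 1146 to 1397 in WT) and Lyz2 (734 to 893 counts in Ythdf2-KO, 569 to 663 in WT). Itgam had 0 counts in every Ythdf2-KO library and 4 counts in 1 WT library. Ythdf2-KO library 3 stood apart in the pan-leukocyte gene Ptprc, with 74 counts against 0 to 6 in the other libraries, and in Thy1, with 25 counts against 0 to 4, and without it the same numbers of members were called, 6 higher and 2 lower. Of 6 endothelial markers 2 were tested, 0 higher and 1 lower, and the list summed to 1.71 to 2.17 CPM in Ythdf2-KO and 2.53 to 2.66 CPM in WT, and their members Cldn5 and Emcn were at 0 in all 6 libraries. Mitochondrially encoded genes took 1.57 to 1.82% of counts in Ythdf2-KO and 1.08 to 1.33% in WT, and the nuclear RNA Malat1 stood at 576 to 722 CPM in Ythdf2-KO and 376 to 511 CPM in WT. The part of these markers and RNA measures in the results below was not tested.

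Of the 10 matricellular genes, 6 were higher in Ythdf2-KO (Thbs1, Sparc, Tnc, Postn, Ccn1 and Ccn2), 2 were lower (Thbs2 and Spp1) and 2 were not called (Thbs3 and Tgfbi). A gene was called at a Benjamini-Hochberg adjusted p under 0.05 in edgeR's quasi-likelihood test over 17718 genes. Across all genes tested 49.9% were called, 24.1% higher and 25.8% lower. The share of the members called was 80%. Because the members were chosen with earlier results of these data known, their counts describe them and give no independent support. In the fit limited to genes with a mean of at least 5 CPM, 66.0% of the genes tested were called. That fit tested 6 members and called 4 higher and 2 lower. Called and at least 2-fold higher were 5 members, against 6.16% of all genes tested, and 0 members were called and at least 2-fold lower, against 3.38%. In 8 members no Ythdf2-KO library overlapped a WT library, which was also true of 55.9% of all genes tested. The median log2 fold change was 1.07 over the 10 members and -0.0053 over all genes tested. The scaling sets the balance of directions over all genes, with 48.3% of calls higher in Ythdf2-KO under TMM factors and 59.2% under upper-quartile factors, while the 8 members called kept their directions under each scaling tried. In these bulk samples, fewer cells that express a gene and less of its RNA per cell cannot be told apart.

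**Figure D1:**
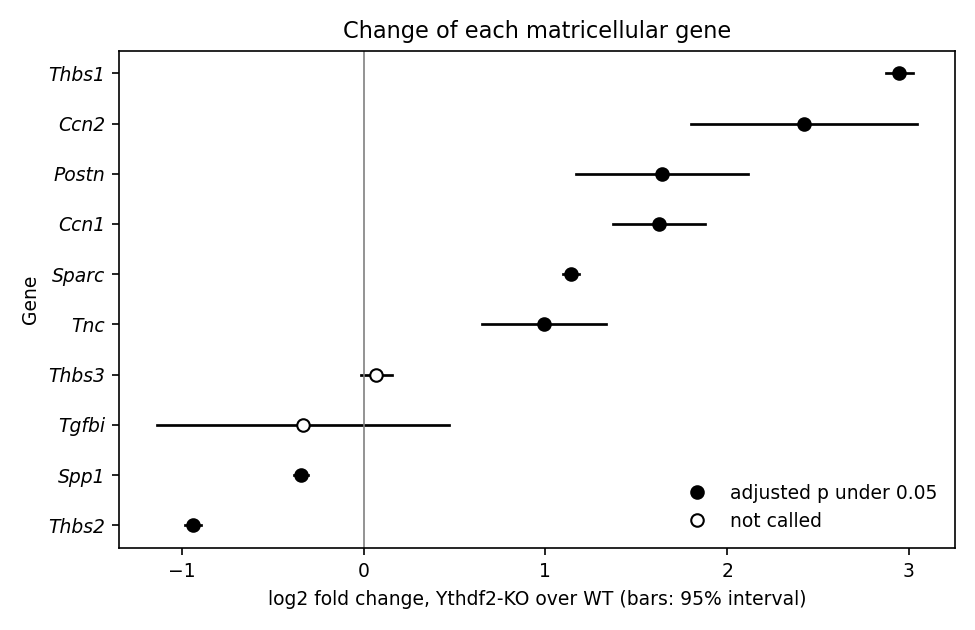
Log2 fold change of each matricellular gene, Ythdf2-KO over WT, with 95% intervals from the edgeR fit (n = 3 libraries per group); filled points passed an adjusted p under 0.05 and open points did not. Thbs1 lies farthest to the right at 2.95, Thbs2 farthest to the left at -0.94, and the widest interval belongs to Tgfbi, which had 16 to 29 counts per library.

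The members spanned several orders of magnitude. On a per-length scale, CPM per kilobase of annotated exon, their order in Ythdf2-KO was Spp1 (3681), Ccn1 (344), Sparc (187), Thbs2 (46.6), Thbs1 (27.9), Thbs3 (7.47), Ccn2 (0.407), Tnc (0.365), Postn (0.194) and Tgfbi (0.0791). In WT the order was Spp1 (4672), Ccn1 (112), Thbs2 (89.5), Sparc (84.8), Thbs3 (7.12), Thbs1 (3.62), Tnc (0.184), Tgfbi (0.0996), Ccn2 (0.0749) and Postn (0.0621). Library ranges of neighbours overlapped for Ccn2 with Tnc in Ythdf2-KO, and for Tgfbi with Ccn2 and Ccn2 with Postn in WT. All other neighbours in these orders were separated in every library. Sparc stood above Thbs2 and Thbs1 above Thbs3 in Ythdf2-KO, and both orders were the other way round in WT. By GENCODE annotation Thbs3, Postn and Ccn1 lie on chromosome 3 and the other members on chromosomes of their own.

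**Figure D2:**
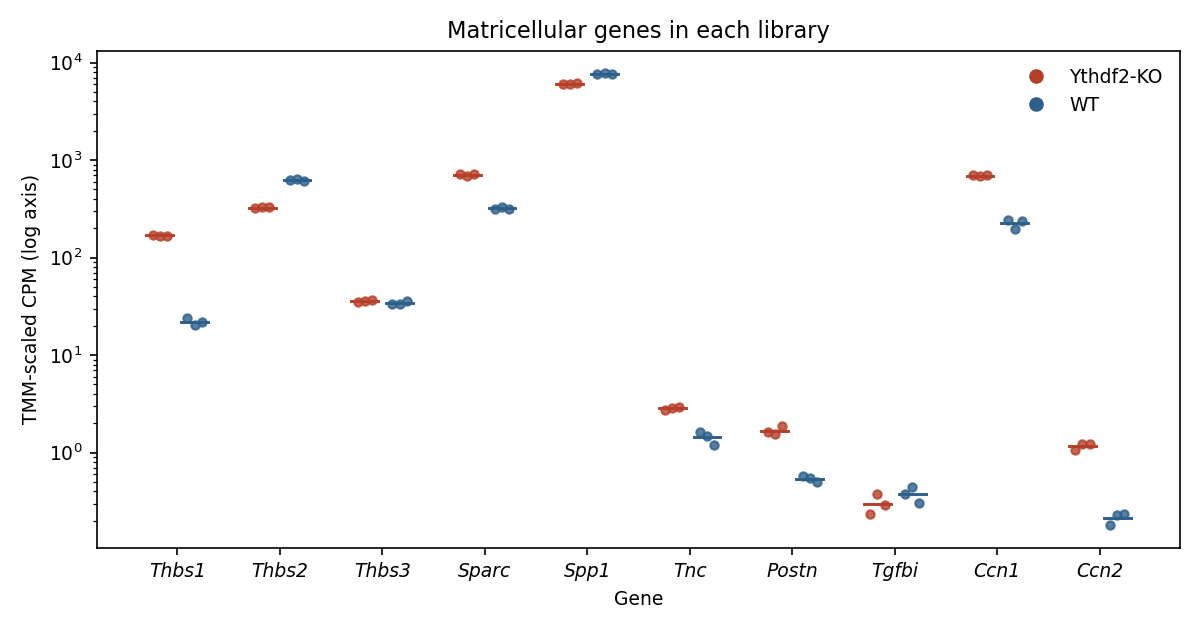
TMM-scaled CPM of each matricellular gene on a log axis, with 1 point per library, Ythdf2-KO left and WT right, and a short line at each group mean. The 6 genes above 20 CPM in both genotypes have tight groups except Ccn1 and Thbs1 in WT (coefficients of variation 11.1% and 7.99%). Tnc, Postn, Tgfbi and Ccn2 lie below 3 CPM in both genotypes.

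To set sequence beside these levels, the promoter windows of the 4 most abundant members per length in Ythdf2-KO are printed, of which Ccn1 and Sparc rose and Thbs2 and Spp1 fell. Each window is from RefSeq on GRCm38.p6, written 5′ to 3′ on the strand of the gene, and holds 250 bases before and 50 bases after an annotated start. The counts were made on another build, GRCm39, so these positions belong to the sequences and not to the counts. Capitals mark matches, on either strand, to the TEAD motif GGAATG or the RUNX motif TGTGGT. Another Spp1 window, chr5:104435942-104436241, held no match to either motif and is not printed.
Ccn1, chr3:145649936-145650235, minus strand: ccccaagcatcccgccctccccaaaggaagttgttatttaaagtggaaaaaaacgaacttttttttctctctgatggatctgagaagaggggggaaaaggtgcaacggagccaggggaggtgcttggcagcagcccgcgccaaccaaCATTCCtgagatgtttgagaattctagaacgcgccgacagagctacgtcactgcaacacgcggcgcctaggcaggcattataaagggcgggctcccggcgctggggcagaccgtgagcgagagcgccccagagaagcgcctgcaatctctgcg
Sparc, chr11:55420031-55420330, minus strand: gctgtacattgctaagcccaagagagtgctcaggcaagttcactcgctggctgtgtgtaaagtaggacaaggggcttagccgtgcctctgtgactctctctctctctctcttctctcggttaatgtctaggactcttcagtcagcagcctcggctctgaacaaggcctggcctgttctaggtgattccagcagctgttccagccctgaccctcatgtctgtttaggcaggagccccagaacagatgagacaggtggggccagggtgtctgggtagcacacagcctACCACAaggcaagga
Thbs2, chr17:14694213-14694512, minus strand: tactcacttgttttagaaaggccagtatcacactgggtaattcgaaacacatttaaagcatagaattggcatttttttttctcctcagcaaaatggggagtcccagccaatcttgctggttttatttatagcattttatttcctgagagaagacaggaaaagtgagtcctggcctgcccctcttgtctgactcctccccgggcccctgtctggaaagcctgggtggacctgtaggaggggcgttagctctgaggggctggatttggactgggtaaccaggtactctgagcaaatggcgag
Spp1, chr5:104434861-104435160, plus strand: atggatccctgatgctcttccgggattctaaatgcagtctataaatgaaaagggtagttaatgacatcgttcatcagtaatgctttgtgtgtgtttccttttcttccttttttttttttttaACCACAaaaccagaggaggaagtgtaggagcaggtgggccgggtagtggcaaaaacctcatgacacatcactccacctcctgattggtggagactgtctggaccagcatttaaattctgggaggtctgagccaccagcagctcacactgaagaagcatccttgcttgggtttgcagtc

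TEAD proteins are the DNA-binding partners of YAP and TAZ, and the RUNX family is known for its control of Spp1 in bone. The table held 11 windows for 8 of the 10 members, with none for Thbs1 and Ccn2. The TEAD motif occurred in the Ccn1 window, at position -103 from the start, and in no other member's window. It occurred in 14.7% of all 32851 windows of this length. The RUNX motif occurred in the first window of Spp1, at position -128, and in the Sparc window at position 36 after the start, against 16.8% of all windows. Neither the AP-1 motif TGANTCA, found in 7.81% of all windows, nor the CArG motif of SRF, found in 1.63%, occurred in a member's window. None of the matches overlapped another. A match of these letters is a description of the window, and the absence of a match concerns only these letters and this window.

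Thbs1, which encodes thrombospondin 1, had the largest fold change of the members. It stood at 171, 168 and 169 CPM in Ythdf2-KO libraries 1, 2 and 3, against 23.9, 20.4 and 21.7 CPM in WT libraries 1, 2 and 3. The groups were far apart, with coefficients of variation of 0.833% in Ythdf2-KO and 7.99% in WT. The log2 fold change was 2.95 ± 0.036 (SE over 3 libraries a group; edgeR adjusted p = 1.70e-38), with a 95% interval of the fold of 7.33 to 8.12. Among the 10508 genes with a mean of at least 5 CPM, 17 had a larger log2 fold change than Thbs1.

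Thbs2, which encodes the close paralog thrombospondin 2, went the other way. It stood at 319, 330.0 and 330.3 CPM in Ythdf2-KO, against 627, 636 and 618 CPM in WT. The groups were far apart, with coefficients of variation of 1.91% in Ythdf2-KO and 1.45% in WT. This was a log2 fold change of -0.94 ± 0.021 (SE over 3 libraries a group; edgeR adjusted p = 7.19e-35), so that 0.521 times the WT level was present. Of the genes with a mean of at least 5 CPM, 1.87% had a more negative log2 fold change.

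Because both genes were counted in the same libraries, their ratio does not depend on the scaling. There were 0.535, 0.510 and 0.510 Thbs1 counts per Thbs2 count in Ythdf2-KO libraries 1, 2 and 3, and 0.0381, 0.0321 and 0.0352 in WT libraries 1, 2 and 3. The ratio was higher in each Ythdf2-KO library than in any WT library. The log2 ratio averaged -0.95 ± 0.040 in Ythdf2-KO and -4.83 ± 0.12 in WT (SD, n = 3 each), a difference of 3.89. The exact two-sided permutation test over libraries gave p = 0.10, the smallest that 3 against 3 libraries allow. Per length, Thbs2 was above Thbs1 in both genotypes.

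Thbs3, which encodes a pentameric thrombospondin, changed little if at all. It stood at 35.5, 35.6 and 37.0 CPM in Ythdf2-KO, against 33.8, 33.6 and 35.6 CPM in WT. The groups overlapped, since WT replicate 3 reached the Ythdf2-KO values. The log2 fold change was 0.069 ± 0.042 (SE over 3 libraries a group; edgeR adjusted p = 0.179), with a 95% interval of the fold of 0.989 to 1.11. It passed with upper-quartile scaling (log2 fold change 0.12, edgeR adjusted p = 0.0132) and with a filter at a mean of 5 CPM (0.093, edgeR adjusted p = 0.0494), and over all alternatives its adjusted p ran from 0.0132 to 0.431. Thbs3 shares 6.59% of its annotated exon bases with Mtx1 on the opposite strand. Mtx1 had 1466 to 1808 counts in Ythdf2-KO and 1463 to 1866 counts in WT. The strand setting of the counting is not given in the sources used here.

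The remaining thrombospondins were near the detection limit or not called. Thbs4 had 2, 0 and 0 counts in Ythdf2-KO and 0, 4 and 2 counts in WT and was not tested. Comp, which encodes the cartilage thrombospondin also named thrombospondin 5, averaged 0.714 ± 0.197 CPM in Ythdf2-KO and 0.538 ± 0.0818 CPM in WT (SD, n = 3; edgeR adjusted p = 0.283). In the thrombospondin family the counts therefore lay almost wholly in Thbs1, Thbs2 and Thbs3.

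**Figure D3:**
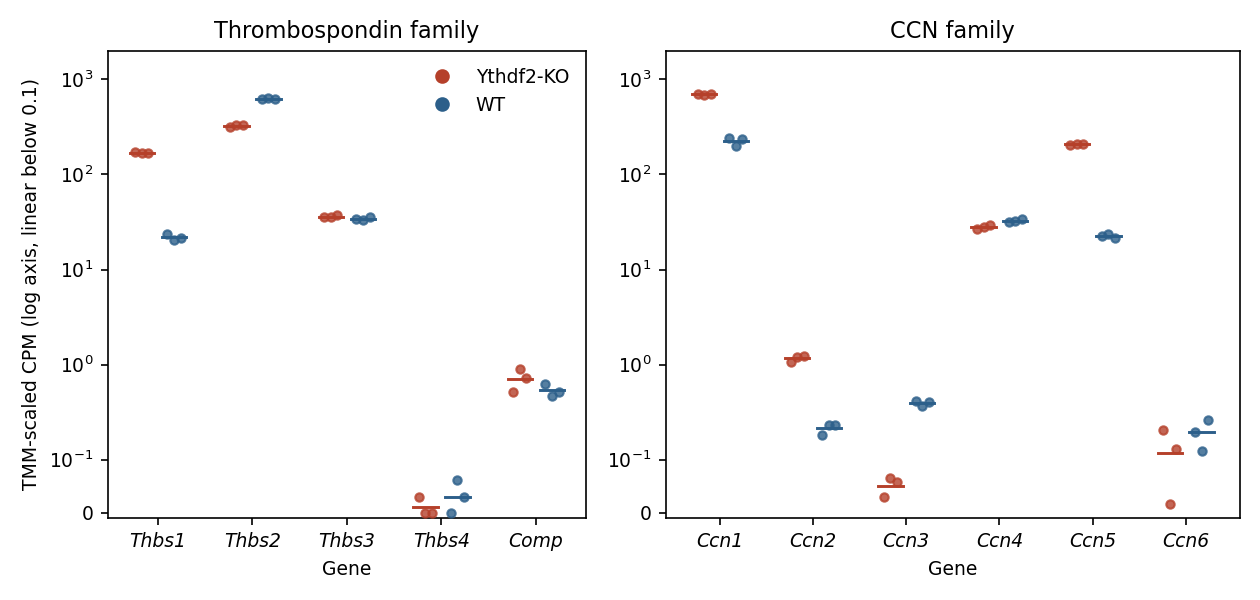
TMM-scaled CPM of the thrombospondin family (left) and the CCN family (right), 1 point per library with a line at the group mean, Ythdf2-KO left of WT; the axis is logarithmic above 0.1 CPM and linear below. Thbs1, Ccn1, Ccn2 and Ccn5 sit higher in Ythdf2-KO, while Thbs2, Ccn3 and Ccn4 sit lower.

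Ccn1, which encodes a secreted integrin ligand also known as CYR61, was the second most abundant member per length. It stood at 703, 681 and 700.4 CPM in Ythdf2-KO libraries 1, 2 and 3, against 243, 197 and 237 CPM in WT libraries 1, 2 and 3. The groups were well separated, but the WT libraries scattered more, with a coefficient of variation of 11.1% against 1.73% in Ythdf2-KO. This was a log2 fold change of 1.62 ± 0.093 (SE over 3 libraries a group; edgeR adjusted p = 1.50e-04). WT replicate 2, the WT library lowest in Ccn1 and Thbs1, was also the WT library lowest in Malat1 (376 CPM) and in mitochondrial counts (1.08%). It was the WT library highest in Thbs2, Sparc, Spp1 and Tgfbi, and a link between these measures was not tested. Without WT replicate 2 the log2 fold change of Ccn1 was 1.55 (edgeR adjusted p = 2.87e-51). Over all alternatives the adjusted p of Ccn1 ran from 3.71e-73 to 0.0148.

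Ccn2, which encodes connective tissue growth factor, rose too, at a far lower level. It had 72, 75 and 85 counts in Ythdf2-KO, or 1.05, 1.21 and 1.23 CPM, against 10, 15 and 16 counts in WT, or 0.180, 0.229 and 0.233 CPM. The groups did not overlap. The log2 fold change was 2.42 ± 0.31 (SE over 3 libraries a group; edgeR adjusted p = 4.92e-09), with a wide 95% interval of the fold of 3.49 to 8.25. The ratio of Ccn1 to Ccn2 counts was 667, 561 and 571 in Ythdf2-KO and 1350.2, 860 and 1014 in WT. The difference of log2 ratios was -0.78 with the smallest possible p of the exact two-sided permutation test, 0.10, and -0.45 with a pseudocount of 5 counts in place of 0.5. Ccn2 shares 23.2% of its annotated exon bases with the opposite-strand transcript Gm15270, which had 3 to 8 counts in Ythdf2-KO and 0 to 2 counts in WT.

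Of the other 4 CCN genes, Ccn5 was higher, Ccn3 and Ccn4 were lower and Ccn6 was not called. Ccn3, Ccn4 and Ccn6 were chosen after their values were seen. Ccn5, which encodes a CCN protein that lacks the C-terminal domain of its relatives, stood at 206, 211 and 211 CPM in Ythdf2-KO and 22.7, 23.7 and 21.3 CPM in WT. All Ythdf2-KO libraries were far above the WT libraries, a 9.27-fold rise (log2 fold change 3.21 ± 0.032, SE over 3 libraries a group; edgeR adjusted p = 5.89e-49). Ccn4 fell slightly, averaging 28.2 ± 1.23 CPM in Ythdf2-KO and 32.7 ± 1.11 CPM in WT (SD, n = 3; edgeR adjusted p = 1.09e-04). Ccn3 had 2, 4 and 4 counts in Ythdf2-KO and 23, 24 and 28 counts in WT, and it was called lower (edgeR adjusted p = 1.93e-05). Ccn6 had 1 to 14 counts in Ythdf2-KO and 8 to 18 counts in WT and was not called (edgeR adjusted p = 0.355).

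Sparc, which encodes the collagen-binding protein osteonectin, rose. It stood at 713, 694 and 716 CPM in Ythdf2-KO, against 319, 327 and 318 CPM in WT. Each Ythdf2-KO library had more than any WT library, with coefficients of variation of 1.67% and 1.58% in Ythdf2-KO and WT. This was a log2 fold change of 1.14 ± 0.021 (SE over 3 libraries a group; edgeR adjusted p = 3.45e-38). The 95% interval of the fold was 2.14 to 2.27.

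Spp1, which encodes osteopontin, was the most abundant member by far and fell. It stood at 5973, 6038 and 6189 CPM in Ythdf2-KO, against 7647, 7766 and 7686 CPM in WT. No Ythdf2-KO library reached a WT library. By mean CPM it ranked 5 among all genes in Ythdf2-KO and 3 in WT, and it took 0.606 to 0.617% of all counts in Ythdf2-KO and 0.762 to 0.766% in WT. The log2 fold change was -0.34 ± 0.020 (SE over 3 libraries a group; edgeR adjusted p = 9.14e-20), which left 0.788 times the WT level. Spp1 shares 18.8% of its annotated exon bases with the same-strand locus Gm42793, which had 855 to 980 counts in Ythdf2-KO and 768 to 1237 counts in WT.

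Because of Spp1, the members' summed level and the majority of their directions differed. The 10 genes together stood at 7921 to 8148 CPM in Ythdf2-KO and 8896 to 8982 CPM in WT. Spp1 made up 75.4 to 76.0% of that sum in Ythdf2-KO and 86.0 to 86.5% in WT. The other 9 genes together stood at 1915 to 1959 CPM in Ythdf2-KO and 1217 to 1250 CPM in WT. In differences of mean CPM, Ythdf2-KO minus WT, Ccn1 gave 469, Sparc 387 and Thbs1 147, while Thbs2 gave -300.3 and Spp1 -1633.

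**Figure D4:**
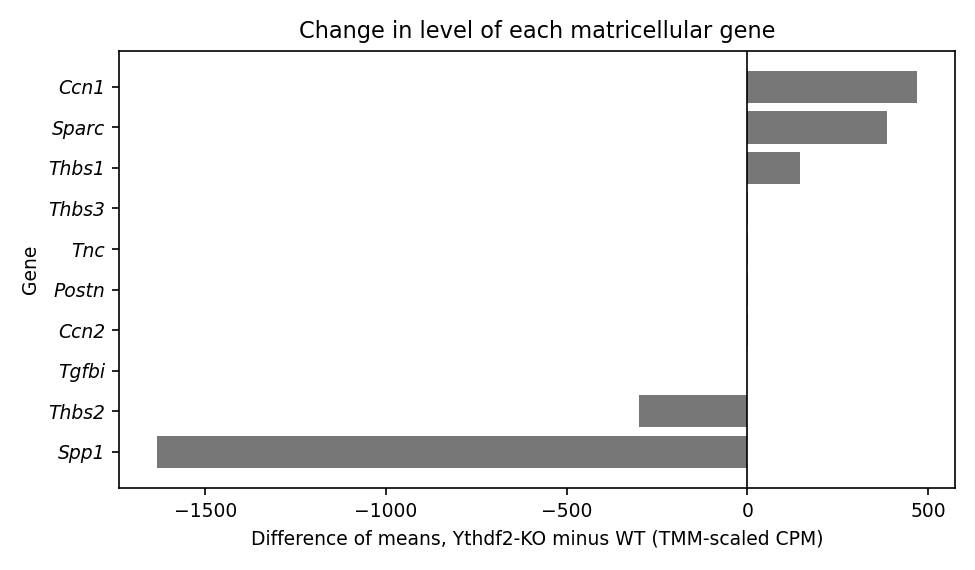
Difference of mean TMM-scaled CPM, Ythdf2-KO minus WT, for each matricellular gene (n = 3 libraries per group; no error bars are drawn). The negative bar of Spp1, -1633 CPM, is longer than the positive bars of Ccn1, Sparc and Thbs1 together.

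Tnc, Postn and Tgfbi, whose products are typical of stroma, were all low. Tnc, which encodes the hexameric glycoprotein tenascin C, stood at 2.72, 2.88 and 2.92 CPM in Ythdf2-KO and 1.64, 1.47 and 1.20 CPM in WT. The groups were separate and the log2 fold change was 0.99 ± 0.17 (SE over 3 libraries a group; edgeR adjusted p = 2.51e-06). Postn, which encodes periostin, stood at 1.61, 1.55 and 1.89 CPM in Ythdf2-KO and 0.576, 0.550 and 0.496 CPM in WT. These groups were also separate, with a log2 fold change of 1.64 ± 0.23 (SE over 3 libraries a group; edgeR adjusted p = 6.80e-08).

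Tgfbi, which encodes a periostin-like protein first found as a TGF-beta-induced transcript, did not pass the test. It had 16, 23 and 20 counts in Ythdf2-KO and 21, 29 and 21 counts in WT, and the groups overlapped. This was a log2 fold change of -0.33 ± 0.40 (SE over 3 libraries a group; edgeR adjusted p = 0.524). At this depth the 95% interval of the fold ran from 0.455 to 1.38, so a change of either direction within it was not excluded.

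Of 19 further matricellular genes listed from the same families, 12 were tested, 3 were higher, 4 lower and 5 not called, with a median log2 fold change of -0.096. This share called was 58.3%, near the 49.9% over all genes. Besides Ccn5, the higher ones were Sparcl1, which encodes the SPARC relative hevin, and Smoc1, which encodes a SPARC-related modular protein. Sparcl1 averaged 90.3 ± 3.06 CPM in Ythdf2-KO and 53.4 ± 3.36 CPM in WT (SD, n = 3; edgeR adjusted p = 7.36e-19), and Smoc1 29.8 ± 1.27 CPM in Ythdf2-KO and 27.1 ± 0.860 CPM in WT (SD, n = 3; edgeR adjusted p = 0.0167). Fstl1, which encodes a secreted SPARC-family glycoprotein, fell to 219.7 ± 2.94 CPM in Ythdf2-KO, against 391 ± 8.43 CPM in WT (SD, n = 3; edgeR adjusted p = 4.17e-32). Smoc2, the relative of Smoc1, was also called lower, with 4, 0 and 10 counts in Ythdf2-KO and 39, 25 and 26 counts in WT (edgeR adjusted p = 7.72e-05); it was chosen after its values were seen. Within the SPARC family, Sparc, Sparcl1 and Smoc1 thus rose, and Fstl1 and Smoc2 fell. Most of this list was scarce, with 12 of the 19 genes under 1 CPM in both genotypes.

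Of 22 listed receptors and binding partners of the members, 21 were tested, 8 were higher, 11 lower and 2 not called, with a median log2 fold change of -0.062. Called were 90.5% of those tested, against 49.9% of all genes, of which 24.1% were higher and 25.8% lower. The median level of the list was 79.2 CPM in Ythdf2-KO and 87.8 CPM in WT. Limited to genes with a mean of at least 5 CPM, the fit called 66.0% of genes. Cd47, the thrombospondin 1 receptor that also signals against phagocytosis, stood at 159, 163 and 165 CPM in Ythdf2-KO and 254, 272 and 267 CPM in WT. Every Ythdf2-KO library was below every WT library (log2 fold change -0.70 ± 0.024, SE over 3 libraries a group; edgeR adjusted p = 7.61e-28), while its ligand gene Thbs1 rose. Cd36, the scavenger receptor through which thrombospondin 1 acts on endothelium, rose but stayed below 1 CPM, at 0.826 ± 0.0451 CPM in Ythdf2-KO and 0.282 ± 0.0591 CPM in WT (SD, n = 3; edgeR adjusted p = 9.49e-05). The genes of osteopontin receptors went in both directions. Cd44 fell, to 771 ± 10.6 CPM in Ythdf2-KO against 988 ± 16.2 CPM in WT (SD, n = 3; edgeR adjusted p = 7.00e-20). Itgav, which encodes the integrin chain alpha V, fell by 0.088 on the log2 scale (edgeR adjusted p = 0.00101). Integrin chain genes Itgb5 and Itga4 rose, Itgb5 to 175 ± 5.02 CPM in Ythdf2-KO against 126 ± 2.35 CPM in WT and Itga4 to 8.11 ± 0.304 CPM in Ythdf2-KO against 1.36 ± 0.240 CPM in WT (SD, n = 3; edgeR adjusted p = 9.55e-21 for Itgb5 and 3.47e-22 for Itga4).

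The falls with the smallest p among the receptors were those of Sdc4, which encodes the heparan sulfate proteoglycan syndecan 4, and Itga6, which encodes an integrin chain, beside Cd47. Sdc4 averaged 322 ± 1.24 CPM in Ythdf2-KO and 555 ± 8.50 CPM in WT, and Itga6 106 ± 1.66 CPM in Ythdf2-KO and 189 ± 3.10 CPM in WT (SD, n = 3). Some integrin chain genes that were low in WT were higher in Ythdf2-KO. Itga9, whose product binds tenascin C and osteopontin, averaged 4.67 ± 0.266 CPM in Ythdf2-KO and 0.642 ± 0.0258 CPM in WT, and Itgb3, the beta 3 partner of alpha V, 6.51 ± 0.323 CPM in Ythdf2-KO and 1.74 ± 0.149 CPM in WT (SD, n = 3). Itga8, also low in WT, was called lower, at 0.249 ± 0.140 CPM in Ythdf2-KO and 0.726 ± 0.215 CPM in WT (SD, n = 3). Itga5 and Itgb1 were called lower too, Itga3 was called higher, and the scarce Itgb8 was not called. Itga4, Itgb5, Itga9, Itgb3, Itga8, Itga5, Itgb1, Itga3 and Itgb8 were chosen after their values were seen.

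Thrombospondin 1 is known to activate latent TGF-beta, and Tgfbi and Ccn2 are known TGF-beta targets. Of 17 listed TGF-beta ligands, latency proteins, receptors and targets, all 17 were tested, 7 were higher, 9 lower and 1 not called, with a median log2 fold change of -0.070, beside 24.1% higher and 25.8% lower over all genes. The list's median level was 45.8 CPM in Ythdf2-KO and 83.2 CPM in WT, and the fit limited to a mean of at least 5 CPM called 66.0% of genes. Tgfbr3, which encodes the co-receptor betaglycan, fell to 94.1 ± 3.10 CPM in Ythdf2-KO, against 164 ± 3.90 CPM in WT (SD, n = 3; edgeR adjusted p = 4.42e-28). Ltbp1, which encodes a protein that stores latent TGF-beta in the matrix, rose to 340.4 ± 4.11 CPM in Ythdf2-KO, against 229 ± 0.878 CPM in WT (SD, n = 3; edgeR adjusted p = 2.20e-26). Targets in this list went in both directions. Skil and Smad7 were lower (log2 fold changes -0.86 and -0.71, edgeR adjusted p = 6.03e-26 and 8.40e-22). Ldlrad4 was higher (log2 fold change 1.04, edgeR adjusted p = 4.26e-11). Skil, Smad7 and Ldlrad4 were chosen after their values were seen. RNA levels do not show TGF-beta activation or protein.

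Of 20 listed YAP/TAZ target genes other than Ccn1 and Ccn2, 17 were tested, 13 were higher, 2 lower and 2 not called, with a median log2 fold change of 0.28. Over all genes 24.1% were higher and 25.8% lower. The median level of the list was 18.1 CPM in Ythdf2-KO and 17.6 CPM in WT. Limited to genes with a mean of at least 5 CPM, the fit called 66.0% of genes, with 49.2% of those calls higher. F3, which encodes tissue factor, rose to 206 ± 2.55 CPM in Ythdf2-KO, against 86.0 ± 2.19 CPM in WT (SD, n = 3; edgeR adjusted p = 9.95e-37). Myof and Axl, which encode the membrane repair protein myoferlin and a receptor tyrosine kinase, rose 1.32- and 1.21-fold. Gadd45a and Foxf2, a stress response gene and a transcription factor gene, fell 1.86- and 1.83-fold. Of the 13 that rose, only Ccdc80, chosen after its values were seen, had a larger fitted log2 fold change than Ccn1, and that difference was not tested. Tgfb2, which rose, is in this list and in the TGF-beta list.

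Structural matrix genes, whose products several members bind, were mostly higher. Of 14 listed, 13 were tested, 10 were higher, 1 lower and 2 not called, with a median log2 fold change of 0.53. Those not called were Bmp1 and Lox, which encode matrix-processing enzymes rather than structural proteins (edgeR adjusted p = 0.240 and 0.563). Over all genes tested 24.1% were higher and 25.8% lower. The list's median level was 120 CPM in Ythdf2-KO and 68.5 CPM in WT, and 66.0% of genes were called in the fit limited to a mean of at least 5 CPM. Col6a2 and Col6a1, which encode chains of the microfibrillar collagen VI, averaged 1645 ± 27.0 and 2463 ± 19.7 CPM in Ythdf2-KO, against 489 ± 7.12 and 1081 ± 9.34 CPM in WT (SD, n = 3). Col1a1, which encodes the main chain of the fibrillar collagen I that SPARC binds, averaged 193 ± 4.27 CPM in Ythdf2-KO and 42.5 ± 2.30 CPM in WT (SD, n = 3; edgeR adjusted p = 3.84e-41). Col5a2, a collagen V chain gene, was the listed gene that fell, by 0.52 on the log2 scale (edgeR adjusted p = 2.57e-09). These lists were chosen with earlier results of these data known, so their counts describe them beside the background and give no independent support.

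**Figure D5:**
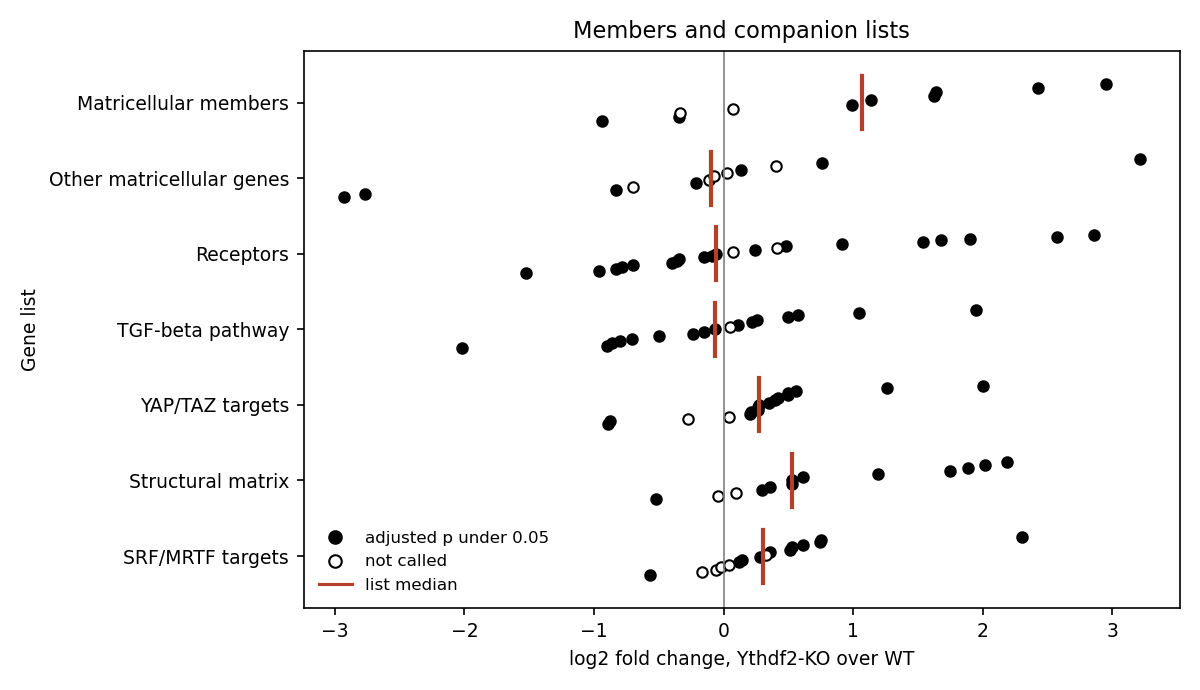
Log2 fold change, Ythdf2-KO over WT, of every tested gene in the matricellular list and in 6 companion lists, with filled points for an adjusted p under 0.05, open points otherwise and a vertical bar at each list's median. The medians are 1.07 for the matricellular genes, 0.53 for structural matrix genes and 0.28 for YAP/TAZ targets, and lie slightly below 0 for receptors, TGF-beta genes and other matricellular genes.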

How the data were processed

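Polyadenylated RNA from 6 B16-OVA libraries, 3 per genotype, was read as paired ends after KAPA HyperPrep library preparation, per the labels' protocols. The authors deposited raw counts, whole numbers with 1 row for each symbol, after fastp 0.23.2, HISAT2 2.2.1 and featureCounts 2.0.6 on GRCm39, per the submitters' processing notes. How strand and multiply aligned reads were handled is not stated in those notes.

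Columns were matched to samples by their description labels and grouped by genotype. The fit used edgeR 4.0.16 under R 4.3.3: filterByExpr with its defaults kept 17718 genes, TMM factors were applied, and a robust quasi-likelihood test was adjusted by Benjamini-Hochberg over all of them. The filter stood at 0.149 CPM, and all 10 members exceeded it in every library. SEs are the log2 fold change over the root of the F statistic. Paralog ratios added a pseudocount of 0.5 counts and used exact permutation tests. The procedure was run on simulated data in which few genes were changed, none of them at low counts. That run does not bear on low counts or on changes as widespread as those seen here. DESeq2 1.42.0 and limma-voom (limma 3.58.1) were among the alternatives.

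Exon lengths and gene overlaps came from GENCODE annotation of GRCm38, joined by symbol, with lengths for 10 of 10 members; promoters came from RefSeq on GRCm38.p6. Figures used Python 3.11.15 and matplotlib 3.10.9.

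All members are named. Of each companion list, the 3 genes with the smallest adjusted p and any 5 or fewer that moved against the majority are named, and Cd36, Cd47, Cd44, Itgav and Ythdf2 in any case; the rest of the genes named (such as Itga4, Itgb5, Itga9, Itgb3, Smoc2, Dcn, Lum, Ptprc, Thy1, Ccdc80, Srf, Acta2 and Comp) were picked once values were known. The values of 1 listed gene are not reported here. The members and lists were chosen with earlier results of these data known. Protein, m6A sites and RNA stability were not analysed here.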

Additional observations from a re-analysis of the deposited data

How the results depend on the processing

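Fits were repeated with upper-quartile or RLE scaling, with TMM factors from which mitochondrial and the 20 most abundant genes were left out, no filter, a filter at a mean of 5 CPM, DESeq2, limma-voom, an adjusted p under 0.01, the replicate block, leaving out each library and leaving out replicate 3 of both genotypes. Of 146 recomputed member fold changes, 144 kept their direction and their side of the threshold. The other 2 concerned Thbs3, which passed with upper-quartile scaling and with the filter at 5 CPM. Members called higher numbered 4 to 7 over the alternatives and 6 whenever 1 library was left out, and members called lower numbered 2 throughout. The count of 4 came with the filter at 5 CPM, which removed Tnc, Postn, Ccn2 and Tgfbi and called Thbs3. Leaving out 1 library moved the log2 fold change of Thbs1 between 2.91 and 3.01 and that of Thbs2 between -0.95 and -0.92. Over all genes, calls higher ranged from 3410 to 5222 and calls lower from 3524 to 4587. Replicate numbers did not pair the libraries: deviations of same-numbered libraries correlated at 0.011, -0.037 and -0.052, and not every library correlated best with its own number. With the replicate block 4132 genes were higher and 4409 lower, against 4270 and 4569 without it, members called numbered 6 higher and 2 lower, and the Thbs1 to Thbs2 log2 ratio differed by 3.89 (exact sign-flip test, p = 0.25, the smallest that 3 pairs allow). The difference of the Ccn1 to Ccn2 log2 ratio lay between -0.92 and -0.61 when 1 library was left out. For Tgfbi, Ccn2, Postn and Tnc the low counts limit precision.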

Other observations

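Cytoskeletal target genes of the transcription factor SRF and its MRTF coactivators, a pathway also known to act on Ccn1 and Ccn2, were mostly higher in Ythdf2-KO. Of 17 listed genes, 16 were tested, 10 were higher, 1 lower and 5 not called, with a median log2 fold change of 0.31, against -0.0053 over all genes tested, of which 24.1% were higher and 25.8% lower. The list's median level was 125 CPM in Ythdf2-KO and 113 CPM in WT, and 66.0% of genes were called in the fit limited to a mean of at least 5 CPM. Cnn2, which encodes the actin-binding protein calponin 2, averaged 263 ± 4.97 CPM in Ythdf2-KO and 156 ± 2.81 CPM in WT (SD, n = 3; edgeR adjusted p = 1.08e-29). Tpm1 and Vcl, which encode a tropomyosin and the focal adhesion protein vinculin, rose 1.53- and 1.68-fold. Some calls were small, with Actb and Zyx up 1.09- and 1.10-fold. Tagln2, which encodes transgelin 2, was the gene that fell, by 0.56 on the log2 scale (edgeR adjusted p = 5.29e-18). Srf itself did not pass, at 72.8 ± 2.96 CPM in Ythdf2-KO and 75.7 ± 1.94 CPM in WT (SD, n = 3; edgeR adjusted p = 0.159). Acta2, the smooth muscle actin gene of contractile fibroblasts, was below 1 CPM on average in both genotypes and did not pass (edgeR adjusted p = 0.918). Tagln, Cnn1 and Tpm2 were not called either (edgeR adjusted p = 0.761, 0.644 and 0.530). Actb, Zyx, Tagln, Cnn1 and Tpm2 were chosen after their values were seen.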
